A study of Mus musculus with 11 samples.

Results

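Genes of transforming growth factor beta (TGF-beta) signalling, 10 in all, were followed across all regions of the series: the ligands Tgfb1, Tgfb2 and Tgfb3, the receptors Tgfbr1, Tgfbr2 and Tgfbr3, the latency proteins Ltbp1, Ltbp3 and Ltbp4, and the intracellular inhibitor Smad7. They were chosen by name, as the rows of the count table that carry these 10 gene symbols, out of 19965 endogenous probes, and each has 1 probe. The study asked how cells of the periostin lineage differ with the vessel or duct they lie beside in the mouse mammary gland. It used GeoMx digital spatial profiling: probes bind RNA on a section, ultraviolet light frees their barcodes where it is aimed, and the barcodes are sequenced. All regions came from naive, paraformaldehyde-fixed frozen glands of mice carrying a ZsGreen reporter of the periostin lineage, so both groups share that reporter, and only ZsGreen-positive cells of a region were collected. Of the 11 regions, 6 were labelled Pdpn-adjacent, next to lymphatic vessels stained for podoplanin (regions 2, 3, 4, 7, 8 and 11), and 5 were labelled SMA-adjacent, next to blood vessels and ducts stained for smooth muscle actin (regions 1, 5, 6, 9 and 10). A lineage reporter marks cells that express periostin or once did, and the construct that drives it, the strain and the age of the mice are not given in the sources used here. The glands came from 3 mice and no label ties a region to a mouse, so some regions of each group share a mouse.

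TGF-beta ligands are secreted bound to their own propeptide, and this latent complex is held in the matrix by latent TGF-beta binding proteins, which attach it to fibrillin and fibronectin fibres. Once released, the ligand binds the type II receptor Tgfbr2, which recruits and activates the type I receptor Tgfbr1, and the signal passes to SMAD proteins that enter the nucleus. Tgfbr3, or betaglycan, is a co-receptor that presents ligand, and Smad7 is an inhibitory SMAD that is itself induced by the pathway. In the mammary gland TGF-beta restrains ductal growth and shapes the stroma.

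The genes are counted through short target sites, and 10 of 10 sites lie inside the RefSeq span of their gene on GRCm38.p6, the build of the file headers. The Ltbp4 site, at chr7:27328258-27328299, lies downstream of each of the 3 Ltbp4 start sites in the RefSeq promoter table, by 9313, 5364 and 5349 bases. Whether transcripts from each start hold the site was not examined, so its count is not assigned to a start. The 250 bases before the 2 most distant of these starts are shown, because Ltbp4 is the member with the largest difference between groups. Both are on the minus strand, 5′ to 3′, and capitals mark the GC box GGGCGG on either strand, with overlapping boxes counted singly.
Ltbp4 upstream start, chr7:27337613-27337862: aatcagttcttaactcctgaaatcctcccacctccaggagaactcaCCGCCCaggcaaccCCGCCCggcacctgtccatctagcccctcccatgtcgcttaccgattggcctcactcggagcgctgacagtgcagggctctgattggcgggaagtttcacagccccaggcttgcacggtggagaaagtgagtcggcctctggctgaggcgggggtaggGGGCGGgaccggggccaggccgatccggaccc
Ltbp4 downstream start, chr7:27333664-27333913: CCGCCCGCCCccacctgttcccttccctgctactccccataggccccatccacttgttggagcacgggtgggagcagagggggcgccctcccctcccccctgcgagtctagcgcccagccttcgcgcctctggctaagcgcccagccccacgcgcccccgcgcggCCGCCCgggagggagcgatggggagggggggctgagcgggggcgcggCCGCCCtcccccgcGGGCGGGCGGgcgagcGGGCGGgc
The upstream window is 64.4% G or C and holds 3 GC boxes, and the downstream window is 79.2% G or C and holds 7, against a median of 52.4% over 32841 RefSeq windows of this length. The GC box is present in 32.75% of those windows. Neither Ltbp4 window holds CAGAC, the short SMAD-binding sequence, or its palindromic form GTCTAGAC, searched on both strands, which are present in 42.21% and 0.1675% of windows.

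Total counts ran from 760761 to 3086323 in SMA-adjacent regions and from 22757 to 2271664 in Pdpn-adjacent regions, where regions 2, 3 and 11 held 22757, 81760 and 30316. The other 8 regions, 3 Pdpn-adjacent and 5 SMA-adjacent, held more than 100000 counts and are called deep below. The lowest value in the table is 1, and it was the count of 9 of the 10 genes in region 2, of 6 in region 11 and of 3 in region 3. A level is the count divided by the geometric mean of the 210 negative-control probes of the same region, so a level of 1 is background. The floor of a region is the mean of its negative probes plus 2 SDs on the log2 scale, and a gene above it was taken as detected. In regions 2 and 11 that floor lies below 2 counts, so that 2 counts suffice there. Detection is therefore given for the deep regions. Probes differ in how well they capture their target, so a level ranks a gene against its background and not against the abundance of another gene. Periostin itself, the gene that names the lineage, was above the floor in 4 of 8 deep regions, with levels of 0.889 to 4.09 in Pdpn-adjacent and 1.84 to 5.13 in SMA-adjacent regions (Postn, log2 fold change -0.16 ± 0.27 SE, edgeR adjusted p = 1.00).

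Ltbp4 and Ltbp3 were the 2 members seen above background in most places, each above the floor in 7 of 8 deep regions, a rate reached by 5.33% of all probes. Tgfbr3 was above the floor in 3 deep regions, Ltbp1 in 2, and Tgfb3 and Smad7 in 1 each, and all of these regions were SMA-adjacent. Of all probes, 9.23%, 5.73% and 10.2% were above the floor in Pdpn-adjacent regions 4, 7 and 8, and 8.79% to 19.2% in SMA-adjacent regions. The floor differs by region: Tgfbr3 at a level of 2.68 in Pdpn-adjacent region 8 (21 counts) was under its floor of 22.6 counts. In SMA-adjacent region 9 a level of 2.05 (177 counts) passed a floor of 176 counts. Tgfb1, Tgfb2, Tgfbr1 and Tgfbr2 were above the floor in 0 of 8 deep regions, as were 75.0% of all probes. The values of these 4 genes are therefore given as background-level readings. The plot of levels by region shows the spread of each gene.

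**Figure D1:**
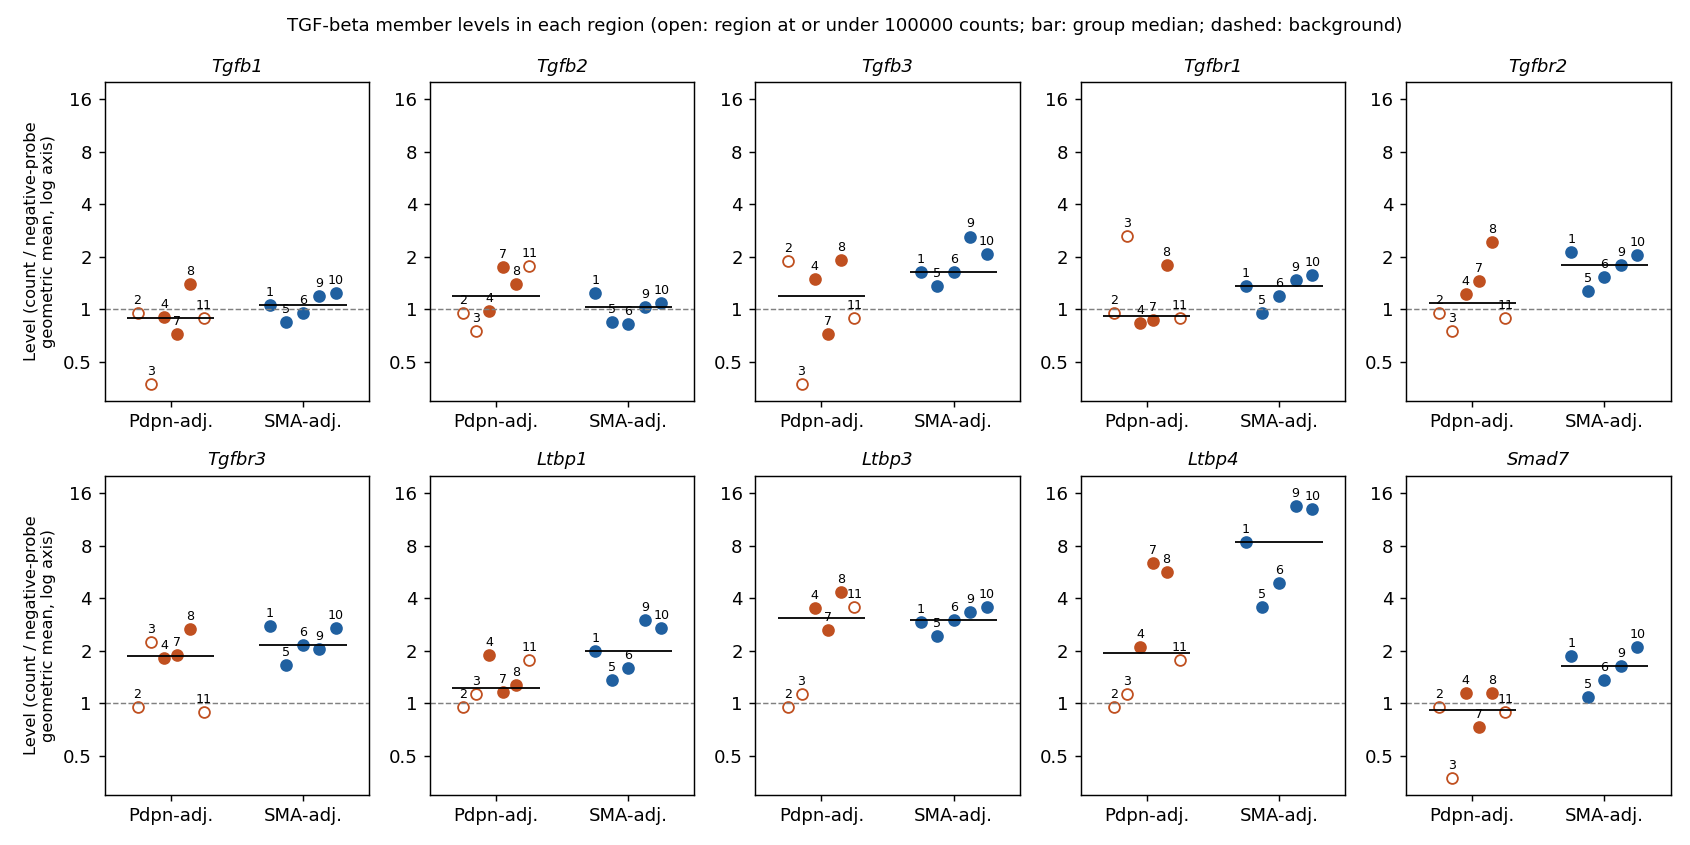
Level of each gene (count over the geometric mean of the negative-control probes, log axis) in the 6 Pdpn-adjacent and 5 SMA-adjacent regions, numbered by region, with open points for the 3 regions at or under 100000 counts, a bar at each group median and a dashed line at background. Ltbp4 spans 0.952 to 13.5 times background, while Tgfb1 stays between 0.375 and 1.41.

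Of the 10 genes, 0 differed between the groups at an adjusted p of 0.05 with the quasi-likelihood test of edgeR, against 0.01% of the 19935 probes tested (2 probes, both higher in Pdpn-adjacent regions). Limma-voom also called 0 of 10, and 0 probes in all. DESeq2 gave an adjusted p for 2 members, Ltbp3 and Ltbp4, and called 0 of them, against 0.581% of the 2927 probes to which it gave one, with 0.547% lower. At an unadjusted p under 0.05, Ltbp4 and Smad7 were lower in Pdpn-adjacent regions by edgeR and 0 members were higher, where 6.03% of all probes tested differed at that level, 3.19% lower and 2.84% higher. Of the alternatives, limma-voom left Ltbp4 above that level (unadjusted p of 0.165), and edgeR left Smad7 above it, at 0.106 with the negative-probe share as a covariate and at 0.0578 without regions 3 and 7. The fitted log2 fold change, Pdpn-adjacent minus SMA-adjacent, was below 0 for 8 of 10 members and for 48.8% of probes tested, and its median was -0.26 over the members and 0.0056 over all probes tested. In library-scaled counts (CPM) 0 of 10 genes had groups that did not overlap, against 0.391% of probes lower and 0.446% higher in every Pdpn-adjacent region. Regions of a shared mouse are treated as independent here, so p-values can be too small, or too large if both groups drew on a mouse. The same holds for every p-value given below.

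**Figure D2:**
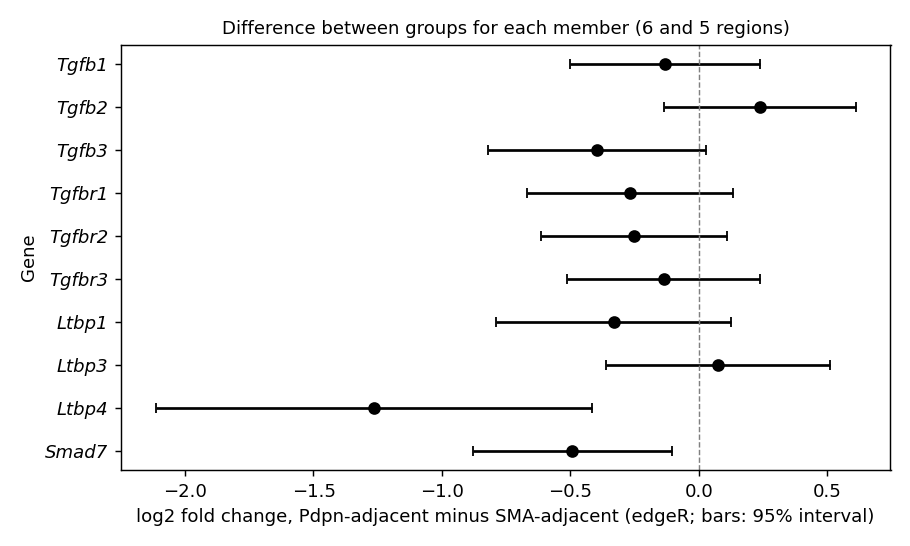
Log2 fold change of each gene, Pdpn-adjacent (6 regions) minus SMA-adjacent (5 regions), from the edgeR fit, with 95% intervals as bars. The intervals of Ltbp4 and Smad7 lie below 0 and the other 8 include 0.

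The remaining target sites, on the same build, are at chr7:25692417-25692462 (Tgfb1), chr1:186632746-186632781 (Tgfb2), chr12:86077587-86077622 (Tgfb3), chr4:47393302-47393351 (Tgfbr1), chr9:116131631-116131674 (Tgfbr2), chr5:107214916-107214951 (Tgfbr3), chr17:75225211-75225252 (Ltbp1), chr19:5750956-5750991 (Ltbp3) and chr18:75369464-75369507 (Smad7). Whether a site is in an exon of each transcript was not examined here.

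The 3 ligand genes stood near background. Tgfb1, the ligand most widely made by immune and stromal cells, gave 24, 94, 61, 103 and 49 counts in SMA-adjacent regions 1, 5, 6, 9 and 10, which are levels of 1.06, 0.846, 0.949, 1.19 and 1.24. In Pdpn-adjacent regions its level was lowest in region 3 at 0.375 (1 count), had a median of 0.894 and was highest in region 8 at 1.41 (11 counts). The groups overlapped, and the log2 fold change was -0.13 ± 0.18 SE with a 95% interval of -0.50 to 0.24 (edgeR adjusted p = 1.00), or 0.030 with limma-voom.

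Tgfb2 had the highest fitted log2 fold change among the members. Its counts in the SMA-adjacent regions, in the same order, were 28, 94, 53, 89 and 43, at levels of 1.24, 0.846, 0.824, 1.03 and 1.09. In Pdpn-adjacent regions the level ran from 0.750 over a median of 1.19 to 1.78, and that top value rests on 2 counts in region 11. Region 7 followed at 1.75 with 12 counts, and 3 of 6 Pdpn-adjacent regions were above every SMA-adjacent region in CPM. These were regions 2, 7 and 11. Region 2 stood there at the lowest count of 1, at 37.5 CPM against 36.9 CPM in SMA-adjacent region 1, and its level was 0.952. On the log2 scale the difference was 0.24 ± 0.18 SE (95% interval -0.14 to 0.61, edgeR adjusted p = 0.958), and 0.52 without Pdpn-adjacent region 4. After background subtraction in the deep libraries, where Tgfb2 was under every floor, it was 2.25 ± 1.95 SE.

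Tgfb3, expressed in many mesenchymal cells, had a median level of 1.64 over all 11 regions. It gave 37, 152, 106, 226 and 82 counts in SMA-adjacent regions, at levels of 1.64, 1.37, 1.65, 2.62 and 2.08, and passed the floor in region 9 alone among deep regions. Its Pdpn-adjacent levels ran from 0.375 in region 3 over a median of 1.19 to 1.92 in region 8 (15 counts). Its mean was 40.6 ± 22.3 CPM (SD, n = 6) in Pdpn-adjacent and 57.4 ± 12.7 CPM (SD, n = 5) in SMA-adjacent regions. Regions 3, 7 and 11 were below all SMA-adjacent regions. The fitted log2 difference was -0.40 ± 0.21 SE (95% interval -0.82 to 0.025, edgeR adjusted p = 0.860). It was -0.23 without SMA-adjacent region 9 and -0.67 without Pdpn-adjacent region 4. Since some regions share a mouse, the p-values of the ligands can be too small.

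Among the receptors, the co-receptor stood farthest above background. Tgfbr3 gave 63, 184, 138, 177 and 106 counts in SMA-adjacent regions 1, 5, 6, 9 and 10, at levels of 2.79, 1.66, 2.15, 2.05 and 2.69, and passed the floor in regions 1, 9 and 10. Its Pdpn-adjacent levels ran from 0.889 over a median of 1.86 to 2.68 in region 8 (21 counts). The 3 deep Pdpn-adjacent regions, at 1.83, 1.89 and 2.68, all lay inside the SMA-adjacent range. Its log2 fold change was -0.14 ± 0.18 SE (95% interval -0.51 to 0.24, edgeR adjusted p = 1.00).

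Tgfbr2, the receptor that binds ligand first, gave 48, 142, 99, 155 and 81 counts in SMA-adjacent regions, at levels of 2.12, 1.28, 1.54, 1.80 and 2.05. In Pdpn-adjacent regions its level ran from 0.750 over a median of 1.09 to 2.43 in region 8 (19 counts), which is above every SMA-adjacent level. In CPM regions 2, 3, 4 and 11 were below all SMA-adjacent regions, and 3 of those 4 are shallow. The groups differed by a log2 fold change of -0.25 ± 0.18 SE (95% interval -0.62 to 0.11, with adjusted p = 0.946 in edgeR and an exact permutation p of 0.0779). Without Pdpn-adjacent region 4 the log2 fold change was -0.077 ± 1.68 SE.

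Tgfbr1, the signalling kinase of the receptor complex, gave 31, 106, 77, 127 and 62 counts in SMA-adjacent regions, at levels of 1.37, 0.954, 1.20, 1.47 and 1.57. Its Pdpn-adjacent levels ran from 0.834 in region 4 over a median of 0.921 to 2.63 in region 3, where 7 counts were read. The log2 fold change was -0.27 ± 0.19 SE (95% interval -0.67 to 0.13, edgeR adjusted p = 0.951), but 0.17 without Pdpn-adjacent region 4 and 0.092 with limma-voom. Weighting regions equally, the difference in mean log2 CPM had an exact permutation p of 0.994. The regions are not independent where they share a mouse, so the receptors' p-values can be too small.

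Among the latency proteins, Ltbp4 had the largest difference between groups of any member. Ltbp4, which binds latent TGF-beta weakly and also organises elastic fibres, gave 189, 398, 313, 1163 and 510 counts in SMA-adjacent regions 1, 5, 6, 9 and 10, at levels of 8.36, 3.58, 4.87, 13.5 and 12.9. In Pdpn-adjacent regions it gave 161, 44 and 44 counts in the deep regions 4, 7 and 8, at levels of 2.10, 6.40 and 5.62, and 1, 3 and 2 counts in the shallow regions 2, 3 and 11, at 0.952, 1.13 and 1.78. Regions 9 and 10 were thus highest, region 4 was below every SMA-adjacent region and under its floor of 179 counts, and regions 7 and 8 lay inside the SMA-adjacent range. Counting error alone gives the 44 counts of region 7 a 95% exact Poisson interval of 32.0 to 59.1 counts, or 4.65 to 8.60 in level, and the 3 counts of region 3 an interval of 0.619 to 8.77 counts, or 0.232 to 3.29 in level.

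Ltbp4 averaged 93.9 ± 67.4 CPM (SD, n = 6) in Pdpn-adjacent and 261 ± 126 CPM (SD, n = 5) in SMA-adjacent regions. In CPM regions 2, 3, 4 and 11 were below all SMA-adjacent regions and regions 7 and 8 were not. The log2 fold change was -1.26 ± 0.41 SE (95% interval -2.11 to -0.41), which did not pass over all probes (edgeR adjusted p = 0.586). The exact permutation test gave p = 0.0195, adjusted over all probes to 0.609, and 3.9% of probes tested were lower at an exact permutation p under 0.05. Among the 8 deep regions the mean level was 4.71 ± 2.29 (SD, n = 3) against 8.64 ± 4.52 (SD, n = 5), and the log2 fold change was -0.98 ± 0.42 SE without regions 2, 3 and 11 (edgeR adjusted p = 1.00, exact permutation p = 0.161, where the smallest that design allows is 0.0179). With the negative-probe share of each library as a covariate the log2 fold change was -0.80, and with limma-voom -0.84. The Ltbp4 p-values can be too small, because some regions of each group come from the same mouse, or too large if both groups drew on a mouse.

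Ltbp3, which binds latent TGF-beta in bone and elsewhere, varied little among SMA-adjacent regions. It gave 66, 269, 192, 288 and 140 counts in SMA-adjacent regions, at levels of 2.92, 2.42, 2.99, 3.34 and 3.55. The deep Pdpn-adjacent regions 4, 7 and 8 gave 269, 18 and 34 counts, at 3.51, 2.62 and 4.34, so the groups overlapped and region 8 was the highest of all. The difference on the log2 scale was 0.075 ± 0.21 SE (95% interval -0.36 to 0.51, edgeR adjusted p = 1.00). Mean values ran the other way, at 87.4 ± 42.3 (SD, n = 6) and 93.6 ± 8.64 CPM (SD, n = 5), as did the difference in mean log2 CPM behind the permutation test (-0.27, exact permutation p = 0.450), and the Pdpn-adjacent regions below all SMA-adjacent regions were the shallow regions 2 and 3. Without Pdpn-adjacent region 4 the log2 fold change was -0.085 ± 1.30 SE, and without regions 4 and 8 it was -0.36 ± 0.31 SE.

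Ltbp1, which carries most latent TGF-beta into the matrix in many tissues, gave 45, 151, 102, 260 and 106 counts in SMA-adjacent regions, at levels of 1.99, 1.36, 1.59, 3.01 and 2.69, and passed the floor in regions 9 and 10. Its Pdpn-adjacent levels ran from 0.952 over a median of 1.22 to 1.90 in region 4 (146 counts). Regions 7 and 8, at 1.16 and 1.28, were below every SMA-adjacent region, and region 4 was not. Pdpn-adjacent regions averaged 46.1 ± 15.4 CPM (SD, n = 6), SMA-adjacent regions averaged 64.9 ± 18.6 CPM (SD, n = 5), and the log2 fold change was -0.33 ± 0.22 SE (95% interval -0.79 to 0.12, edgeR adjusted p = 0.933). That value was -0.14 without SMA-adjacent region 9 and -0.81 without Pdpn-adjacent region 4. With regions from shared mice, the p-values of Ltbp3 and Ltbp1 can be too small.

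Smad7, the inhibitor induced by the pathway, gave 42, 121, 87, 141 and 83 counts in SMA-adjacent regions, at levels of 1.86, 1.09, 1.35, 1.63 and 2.11, and passed the floor in region 10 alone. In the deep Pdpn-adjacent regions 4, 7 and 8 it gave 88, 5 and 9 counts, at 1.15, 0.728 and 1.15, and in regions 2, 3 and 11 it stood at the lowest count of 1. Every Pdpn-adjacent level was at or below 1.15 and 4 of 5 SMA-adjacent levels were above it, the exception being region 5. Pdpn-adjacent regions averaged 29.2 ± 9.90 (SD, n = 6) and SMA-adjacent regions 49.2 ± 9.58 CPM (SD, n = 5), and in CPM regions 3, 7, 8 and 11 were below all SMA-adjacent regions. Its log2 fold change was -0.49 ± 0.19 SE (95% interval -0.88 to -0.10, edgeR adjusted p = 0.710), and the exact permutation test gave p = 0.0130, adjusted over all probes to 0.609, and p = 0.0536 without regions 2, 3 and 11.

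At levels this near background the size of the Smad7 difference depends on how background is treated. It was -2.22 after background subtraction in the deep libraries and -0.31 with the negative-probe share as a covariate. It was -0.87 without Pdpn-adjacent region 4, which holds most of the group's counts, and -1.06 without regions 4 and 8. In every setting run, the adjusted p of Smad7, where the tool gave one, was 0.204 or higher. Where regions share a mouse, such p-values can be too small.

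**Figure D3:**
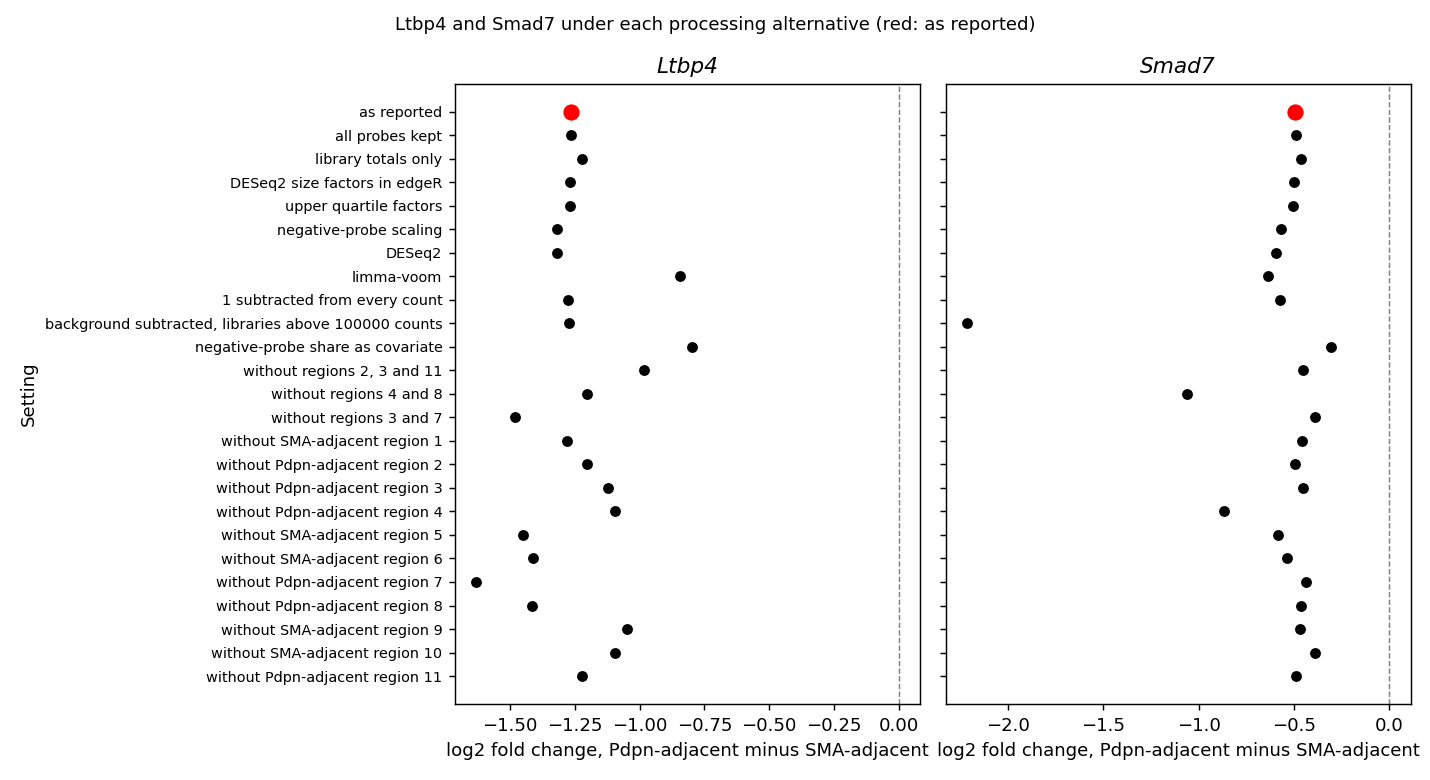
Log2 fold change of Ltbp4 and Smad7, Pdpn-adjacent minus SMA-adjacent, as reported (red) and under each of the 24 processing alternatives (black). Ltbp4 ran from -1.63 to -0.80 and Smad7 from -2.22 to -0.31 over the alternatives.

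Within the SMA-adjacent group the members' levels had similar low and high regions. Region 5, the deepest library, was lowest for 9 of 10 members, all except Tgfb2, and region 10 was among the 2 highest for 10 of 10. How many of all probes shared this order was not counted. All levels of a region share 1 background value, and the negative-probe share of the group was highest in region 5 (0.818%) and lowest in region 10 (0.610%). The median level over the members was 1.32 in region 5, 1.56 in region 6, 1.92 in regions 1 and 9 and 2.09 in region 10. The share of all probes above the floor was 8.79% in region 5, 12.5% in region 6, 12.2% in region 1, 19.1% in region 9 and 19.2% in region 10. Region 5 was thus lowest and region 10 highest in both, while regions 1 and 6 stood in the other order, and the part of the share over all probes in the members' levels was not tested. Ltbp4 spread most: region 9 was at 13.5 and region 5 at 3.58 times background, while Ltbp3 ran only from 2.42 to 3.55.

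Genes elsewhere in the pathway were read from 4 lists of 36 genes in all, and 0 of 36 passed over all probes. Of the 36, 22 had a log2 fold change below 0, with a median of -0.062, and 5 were lower at an unadjusted p under 0.05 and 0 higher. Over all probes tested 48.8% were below 0, and 3.19% were lower and 2.84% higher at that level. Among 11 activators and matrix anchors the count at that level was 0, with a median of 0.0090, and the smallest p-values belonged to Emilin1, a matrix glycoprotein that restrains TGF-beta maturation (-0.30 ± 0.18 SE, edgeR adjusted p = 0.927), and Thbs1, thrombospondin-1, an activator of the latent complex (-0.33 ± 0.22 SE, edgeR adjusted p = 0.931). Among 6 further receptors it was 1, Eng, or endoglin, a co-receptor of endothelial cells, which averaged 97.8 ± 65.8 CPM in the 6 Pdpn-adjacent and 210.0 ± 65.2 CPM in the 5 SMA-adjacent regions (SD). Its fitted log2 difference was -0.78 ± 0.33 SE, with an edgeR adjusted p of 0.761. The decoy receptor Bambi had -0.21 ± 0.19 SE (edgeR adjusted p = 0.986).

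Among 11 SMADs and their regulators the count was 0, with a median of -0.073. Smad4, the partner shared by the signalling SMADs, had -0.32 ± 0.17 SE (edgeR adjusted p = 0.891), and Smurf1, a ubiquitin ligase that works with Smad7, had -0.24 ± 0.18 SE (edgeR adjusted p = 0.957). Among 8 genes known as TGF-beta targets it was 4, with a median of -0.36: Ccn2, Fn1, Tgfbi and Col1a1, the last of which is also among the fibroblast markers given further on. Ccn2, a matricellular protein, averaged 35.1 ± 8.77 CPM (SD) in Pdpn-adjacent and 98.3 ± 57.6 CPM in SMA-adjacent regions (-1.42 ± 0.37 SE, edgeR adjusted p = 0.217). Fn1, fibronectin, averaged 43.6 ± 20.5 and 97.3 ± 34.9 CPM (-0.94 ± 0.27 SE, edgeR adjusted p = 0.398). Tgfbi, a secreted adhesion protein, had -0.51 ± 0.22 SE, and Col1a1, a collagen chain, had -1.40 ± 0.60 SE, and their adjusted p was 0.761 and 0.764 in edgeR. Ccn2 and Fn1 were above the floor in 0 Pdpn-adjacent and 3 SMA-adjacent regions, and Tgfbi in 0 and 1, so their Pdpn-adjacent values are background-level readings. Bhlhe40, a transcription factor, had 0.030 ± 0.20 SE, and Timp1, an inhibitor of metalloproteinases, had 0.15 ± 0.19 SE (edgeR adjusted p = 1.00 for both). As regions from a shared mouse enter these tests as independent, the p-values can be too small.

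Markers of neighbouring cell types were read in the same regions, and over all probes 1 of their genes passed, Csn3, a milk protein gene, higher in Pdpn-adjacent regions (edgeR adjusted p = 0.0413). The counts that follow are at an unadjusted p under 0.05 in edgeR, a level at which 3.19% of all probes were lower and 2.84% higher. The levels of 9 smooth muscle genes summed to 10.5 to 37.1 in Pdpn-adjacent and 38.6 to 206 in SMA-adjacent regions, with 8 of 9 lower. Regions were chosen by the stain for Acta2, which is among them. A list whose genes all stand at background sums to its number of genes, so lists of unlike length are not compared by their sums. For 9 fibroblast genes the sum was 8.57 to 86.2 against 52.7 to 159 (6 of 9 lower), and 44.6 to 86.2 in the deep Pdpn-adjacent regions. For 6 blood endothelial genes it was 5.71 to 19.3 against 12.0 to 27.4 (3 of 6 lower), and 11.4 to 19.3 in the deep Pdpn-adjacent regions, which overlap the SMA-adjacent range. For 6 macrophage genes it was 5.71 to 18.0 against 12.4 to 18.4 (2 of 6 lower), and 8.88 to 18.0 in the deep Pdpn-adjacent regions. For 6 adipocyte genes it was 5.71 to 235 against 109 to 305 (0 of 6 lower), and 169.8 to 235 in the deep Pdpn-adjacent regions. In region 2 every gene of these last 4 lists stood at 1 count.

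For 8 luminal epithelial genes the sum was 8.89 to 26.8 against 10.9 to 14.4, with 8 of 8 higher, but an exact permutation p was under 0.05 for 2 of them and ran up to 0.898. The mean luminal level was 3.05 in region 4 and 3.35 in region 8, and 1.11 to 1.69 in the other Pdpn-adjacent regions, against 1.36 to 1.80 in SMA-adjacent regions. For 4 basal epithelial genes the sum was 3.75 to 20.5 against 4.08 to 5.17 (1 of 4 higher), and 4.37 to 6.90 in the deep Pdpn-adjacent regions. The highest sum was in shallow region 11, at a mean level of 5.11. The 1 higher gene was Krt5, at median levels of 0.736 in Pdpn-adjacent and 0.310 in SMA-adjacent regions, above the floor in 0 and 0. For 7 fast skeletal muscle genes the sum was 7.48 to 616 against 7.51 to 77.4 (5 of 7 higher), with exact permutation p from 0.320 to 0.548. Their mean level was 88.0 in region 3 and 39.8 in region 7, and 1.07 in region 4. Of 7 lymphatic endothelial genes 0 were lower or higher, their sum was 6.66 to 12.1 against 9.99 to 11.9, and Prox1, Lyve1, Pdpn, Flt4 and Reln were above the floor in 0 of 11 regions. The exact permutation p was under 0.05 for 1 of these genes, Pdpn (exact permutation p = 0.0260). It averaged 36.0 ± 14.0 CPM (SD) in Pdpn-adjacent and 53.2 ± 3.99 CPM in SMA-adjacent regions. The p-values behind these counts can be too small where a mouse gave several regions. The part of these cell types in the values of the TGF-beta genes was not tested, and in such samples fewer cells of a type and less RNA per cell cannot be told apart.

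Ltbp4 levels were set beside the mean levels of these lists. Over the 8 deep regions Pearson's r of log2 levels with the 8 TGF-beta target genes was 0.96 and Spearman's rho 0.88. With the fibroblast list they were 0.94 and 0.90, and with the smooth muscle list they were 0.91 and 0.81. With blood endothelial genes they were 0.89 and 0.86, and with luminal epithelial genes -0.54 and -0.55. With the SMADs and their regulators, at mean levels of 1.16 to 1.82 in SMA-adjacent regions, they were 0.83 and 0.88. With the further receptors they were 0.78 and 0.86. The activators and anchors gave 0.62 and 0.60, adipocyte genes 0.59 and 0.60, and lymphatic endothelial genes 0.51 and 0.48. For macrophage genes the values were 0.43 and 0.43, for fast skeletal muscle genes 0.28 and 0.26, and for basal epithelial genes -0.015 and 0.071. These describe 8 points that share a library and a background value, and their number is small. A list's mean level follows its highest genes most. Among the target genes that is Col1a1, also a fibroblast marker, with a median level of 27.4 in SMA-adjacent regions against 0.810 to 3.49 for the others. The order of regions differed in part. Pdpn-adjacent regions 7 and 8 had Ltbp4 levels of 6.40 and 5.62, above the 3.58 and 4.87 of SMA-adjacent regions 5 and 6. The mean smooth muscle levels of regions 7 and 8, 4.12 and 3.34, were below the 4.29 and 5.26 of regions 5 and 6. For the fibroblast list, regions 7 and 8 stood at 8.02 and 9.58, and regions 5 and 6 at 5.86 and 9.45.

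**Figure D4:**
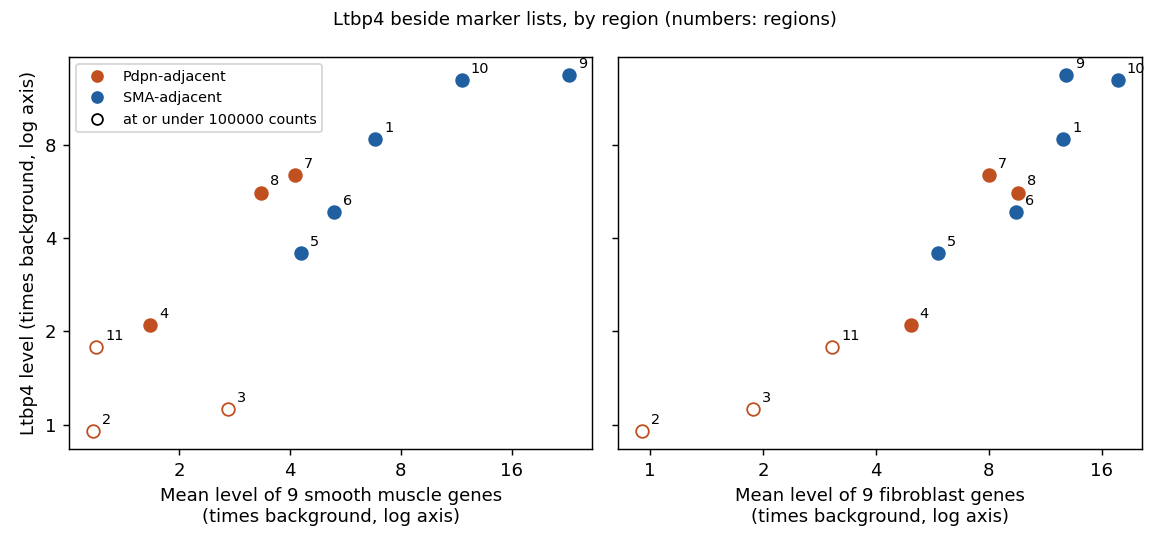
Ltbp4 level against the mean level of 9 smooth muscle genes (left) and 9 fibroblast genes (right) in each of the 11 regions, all in times background on log axes, with open points for the 3 regions at or under 100000 counts. Regions 9 and 10 are highest for Ltbp4, at 13.5 and 12.9, and region 4 is lowest of the deep regions, at 2.10.

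The probes most like the 2 members of highest median level were found over the same 8 regions, by Pearson's r of log2 levels. For Ltbp4 they were Igfbp4, an insulin-like growth factor binding protein (r = 0.98), Podxl, podocalyxin (0.98), Fbln2, a matrix fibulin (0.97), Mmrn2, an endothelial matrix protein (0.97), and Pi15 (0.97). Igfbp4 was above the floor in 8 of 8 deep regions and Fbln2 in 5, while Mmrn2 was in 3, Podxl in 2 and Pi15 in 0. For Ltbp3 they were Stx2, Obi1, Crip3, Dvl1 and Kit (r = 0.98, 0.98, 0.98, 0.97 and 0.96), of which Crip3 was above the floor in 6 deep regions, Stx2 in 2 and the other 3 in 0. Values of r this high are found by choice among 19935 probes over 8 points that share their background. Ltbp4 and Ltbp3 had an r of 0.14 with each other.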

How the data were processed

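GeoMx whole-transcriptome probe counts of 11 regions were analysed, 6 Pdpn-adjacent and 5 SMA-adjacent as their titles give them. The labels count 12 collected areas, the deposited counts cover 11, and all 11 were analysed. The authors deposited raw counts per probe without normalization, judged from the values, with a lowest value of 1. The build of the probe positions is GRCm38.p6, per the file headers. The steps from reads to counts, removal of duplicates and treatment of zeros are not given in the sources used here. Total counts ran from 22757 to 3086323. Intervals on counts cover counting error only.

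The 210 negative-control probes gave each region's background and stayed out of library sizes and tests. Their share of a region's counts was 0.610% to 0.979%. Of 19965 endogenous probes, filterByExpr of edgeR 4.0.16 (R 4.3.3) kept 19935, the 10 members among them. They were fitted with TMM factors and the two-sided quasi-likelihood test, with Benjamini-Hochberg adjustment over all of them and a threshold of 0.05. Standard errors (SE) are those implied by its p. Exact two-sided permutation tests used all 462 ways to choose the groups, on log2 CPM with a prior count of 2, and their smallest p is 0.00216. Alternatives used DESeq2 1.42.0, limma 3.58.1, other scalings and filters, or left out regions. Promoter windows are from RefSeq on GRCm38.p6, whose table held 7 of the 10 members.

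The members and lists were chosen with earlier results of these data known. The text names each member, the 2 genes of smallest p in each pathway list, and the 5 probes most like each of the 2 members of highest median level. Other target genes, Postn and the marker genes named singly were added after their values were seen.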

Additional observations from a re-analysis of the deposited data

Results flagged for a closer look

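Of 40 sets of values (10 genes, CPM and level, both groups), 1 held a value far from the rest by Dixon's test, which chance gives in about 1 of 20. Tgfbr1 in Pdpn-adjacent region 3 stood at 86.4 CPM, and the next highest region of the group at 46.5 CPM. The value rests on 7 counts in a library of 81760.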

How the results depend on the processing

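Under each of the 24 alternatives 0 members were called, where DESeq2 gave 2 of the 10 an adjusted p. The count of called probes, 2 as reported, was 1 with upper quartile factors, with negative-probe scaling, after background subtraction in the deep libraries and without regions 2, 3 and 11. It was 0 with limma-voom, 17 with DESeq2, 57 with 1 subtracted from every count, 37 with the negative-probe share as a covariate, 13 without regions 4 and 8 and 14 without regions 3 and 7. Leaving out 1 region gave 1 to 53 called probes, the highest without SMA-adjacent region 5, with 13 without Pdpn-adjacent region 7. The cause was not tested. Ltbp4, Smad7, Tgfb2, Tgfb3, Tgfbr2, Tgfbr3 and Ltbp1 kept their direction under every alternative run. Ltbp4 ran from -1.63 to -0.80 (edgeR, DESeq2 or limma-voom adjusted p from 0.184 to 1.00). Tgfb1 turned to 0.030 with limma-voom, which moved the median of all probes to 0.14. Tgfbr1 turned to 0.092 with limma-voom, 0.12 without regions 4 and 8 and 0.17 without Pdpn-adjacent region 4 (-0.38 to 0.17 leaving out 1 region). Ltbp3 turned to -0.36 ± 0.31 SE and -0.085 ± 1.30 SE in the last 2 of these settings (-0.085 to 0.17 leaving out 1 region). In the permutation test on log2 CPM the direction turned for Tgfbr1 with library totals only (exact permutation p = 0.911) and for Ltbp3 without regions 2, 3 and 11 (exact permutation p = 0.357), where it took the sign of the edgeR fold change, opposite to that of the permutation test over all regions. The fold change of Tgfb1 after background subtraction could not be fitted, since too few counts remained. No paired analysis was possible because each region number belongs to 1 region and no label ties regions to mice. Levels near background and the 3 shallow libraries limit the members, and Ltbp4 and Ltbp3 were also under the floor in 1 deep region each.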
